A study of Mus musculus with 20 samples.

Results

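Liver messenger RNA was compared between fasted male mice carrying the K556R form of Prox1 and fasted wild-type mice, using the 10 libraries that the sample titles give as fasted, out of 20 in the series. The 2 groups held 5 libraries each, wild type fasted (labelled Ctrl in the titles and Wild_type as genotype) and K556R fasted (labelled Cre and Prox1_K556R), and in each group 4 libraries came from batch 1 and 1 from batch 2. The K556R form was switched on in hepatocytes through Cre when the mice were 8 weeks old. Livers were collected 11 weeks later, between Zeitgeber times 15 and 17. The mice ate chow, with 12 h of light and 12 h of darkness a day. The other 10 libraries are of refed mice, 5 of each genotype, and serve here to test whether a genotype difference depended on feeding. The sources used here do not give how Cre was delivered, whether the control mice received it, or how long the fast lasted, so an effect of Cre and one of the altered lysine cannot be told apart. The labels do not say that each library came from its own mouse, so the p-values measure only the spread between these libraries, which may be technical in part.

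Prox1 encodes a homeodomain transcription factor that hepatocytes, lymphatic endothelium and several progenitor cells use. In the liver it binds nuclear receptors such as HNF4A and LRH-1 and acts mostly as a corepressor of metabolic genes, through histone deacetylases and the demethylase LSD1. SUMO is a small protein that is joined to lysines of other proteins by a conjugating enzyme and removed by SENP proteases, and on transcription factors it often strengthens repression. SUMO is commonly attached within a short motif in which the lysine follows a large aliphatic residue and an acidic residue stands at the second place after it.

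The altered codon is shown because the genotype label of the K556R group names the change at it. The 2 groups differ in the Cre label as well. In the reference transcript the lysine that K556R replaces has the codon AAG, in exon 2 of 5 and in a protein of 737 residues, and lies at chr1:190160579-190160581 on the minus strand of GRCm38. The residue before it is I (isoleucine) and the second after it is E (glutamate). The 75 bases of coding sequence around it, at chr1:190160543-190160617, are printed 5′ to 3′ with the lysine codon in capitals.
Prox1 K556R site: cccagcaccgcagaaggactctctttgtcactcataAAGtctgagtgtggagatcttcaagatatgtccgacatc
The sequence is that of the wild-type reference. The knock-in allele was not read here, since gene counts do not cover single codons.

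The libraries held 33746054 to 49835723 counts each. Albumin took 7.32 to 10.6% of them, and the hepatocyte markers summed to 104000 to 141000 CPM (CPM are counts per 1000000 of the normalised library size) in wild type and 128000 to 139000 CPM in K556R. K556R 1_b1, the first K556R library of batch 1, stood apart on the first principal component (21.1% of the variance) at 35.3 against −26.8 to 7.27 in the other 9. Its lymphocyte markers summed to 12.7 CPM against at most 4.10 CPM in any other library. The tests over all genes, the named genes and the list medians were recomputed without it. Below, the 5 values of a group are given in the order 1_b1, 2_b1, 3_b1, 4_b1 and 1_b2.

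Prox1 itself measured 177.5, 214.3, 115.5, 190.5 and 185.1 CPM in wild type against 82.28, 90.04, 119.5, 106.3 and 105.7 CPM in K556R. Wild type 3_b1 was the one wild-type library that lay within the K556R range, and the other 4 lay above it. The means were 176.6 ± 36.8 and 100.8 ± 14.7 CPM (SD, n = 5), a log2 difference of −0.81 (SE 0.16, 0.571-fold). This did not pass edgeR's quasi-likelihood test over all genes (adjusted p = 0.506), whereas DESeq2 called it (adjusted p = 0.000741). The difference was −0.81 in batch 1 and −0.81 between the single libraries of batch 2, and −0.75 (SE 0.17) without K556R 1_b1. The gene spans chr1:190118035-190170714 on the minus strand.

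AK083547, a transcript known by a cDNA clone name and with no entry in GENCODE M21, lay on the other side. It measured 42.9, 48.08, 23.14, 46.4 and 39.76 CPM in wild type against 77, 70.23, 98.06, 87.06 and 89.26 CPM in K556R, with no overlap. Its log2 difference was 1.07 (SE 0.18, 2.1-fold), with an edgeR adjusted p of 0.468 and a DESeq2 adjusted p of 1.97e-05. Wild type 3_b1 was the lowest wild-type library for this transcript and for Prox1 alike. The position of AK083547 and the strand setting of the counting are not known here. Whether its count shares reads with that of Prox1 was therefore not tested, and their ratio is a description only. Without wild type 3_b1 edgeR called AK083547 and Prox1, with an adjusted p of 0.0322 for each, and no other gene. No gene was called with any other single library left out, so these calls rest on which library was dropped.

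**Figure D1:**
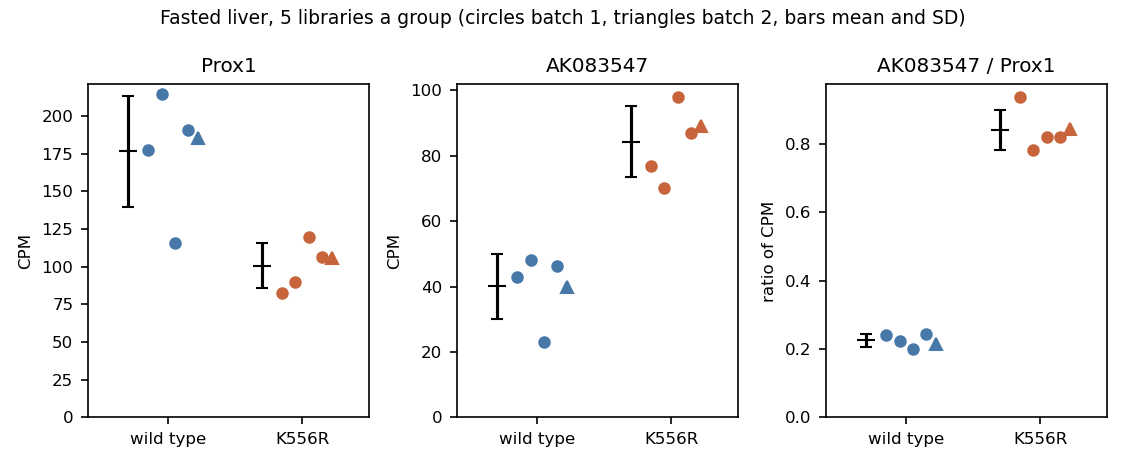
CPM of Prox1 and of AK083547 and the ratio of the 2, in each fasted library, by genotype. Circles are batch 1, triangles batch 2, and bars the mean with SD over 5 libraries. Wild type 3_b1, at 115.5 CPM of Prox1 and 23.14 CPM of AK083547, is the low wild-type point in the first 2 panels, and the ratio runs from 0.200 to 0.244 in wild type and from 0.78 to 0.936 in K556R.

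Genes beside Prox1 on chromosome 1 were examined because a knock-in can carry linked sequence with it. The labels Ctrl and Wild_type do not say whether the controls held the targeted allele without Cre. In that case both groups would share the linked sequence, so an effect of it was not tested. Within 20 Mb of Prox1 on either side, 10 of 153 tested genes (6.54%) had an unadjusted p under 0.05, 5 higher and 5 lower. Of the other genes with a position it was 810 of 12131 (6.68%). The nearest tested neighbours were the lysine methyltransferase gene Smyd2 at a log2 difference of −0.11 (SE 0.08), the phosphatase gene Ptpn14 at 0.25 (SE 0.13) and the kinase gene Rps6kc1 at 0.04 (SE 0.08). All 3 overlapped between the groups.

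Over the genome, edgeR called none of 13294 genes at an adjusted p of 0.05 (0%), and the lowest adjusted p was 0.396. An unadjusted p under 0.05 was found for 382 higher genes (2.87%) and 499 lower genes (3.75%). DESeq2 called 17 genes higher (0.128%) and 25 lower (0.188%), and limma with sample weights called 0. The CPM ranges of the 2 genotypes did not overlap for 49 higher genes (0.369%) and 66 lower genes (0.496%). With upper-quartile scaling in place of TMM, the ranges did not overlap for 58 higher and 50 lower genes, so the split by direction depended on the scaling. Without K556R 1_b1, edgeR called 0 genes, 819 had an unadjusted p under 0.05, and DESeq2 called 31, a fit added after the data were seen.

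The 12 genes of lowest p in each direction, most of which are described next as values, had edgeR adjusted p of 0.396 to 0.545. Since they were chosen by this contrast, their order and size are a description and support nothing. DESeq2 called all 24, and 16 of the 24 without K556R 1_b1. The CPM ranges of the genotypes did not overlap for 14 of them, 8 higher and 6 lower. All 24 lay on the same side in batch 1 and between the 2 libraries of batch 2.

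**Figure D2:**
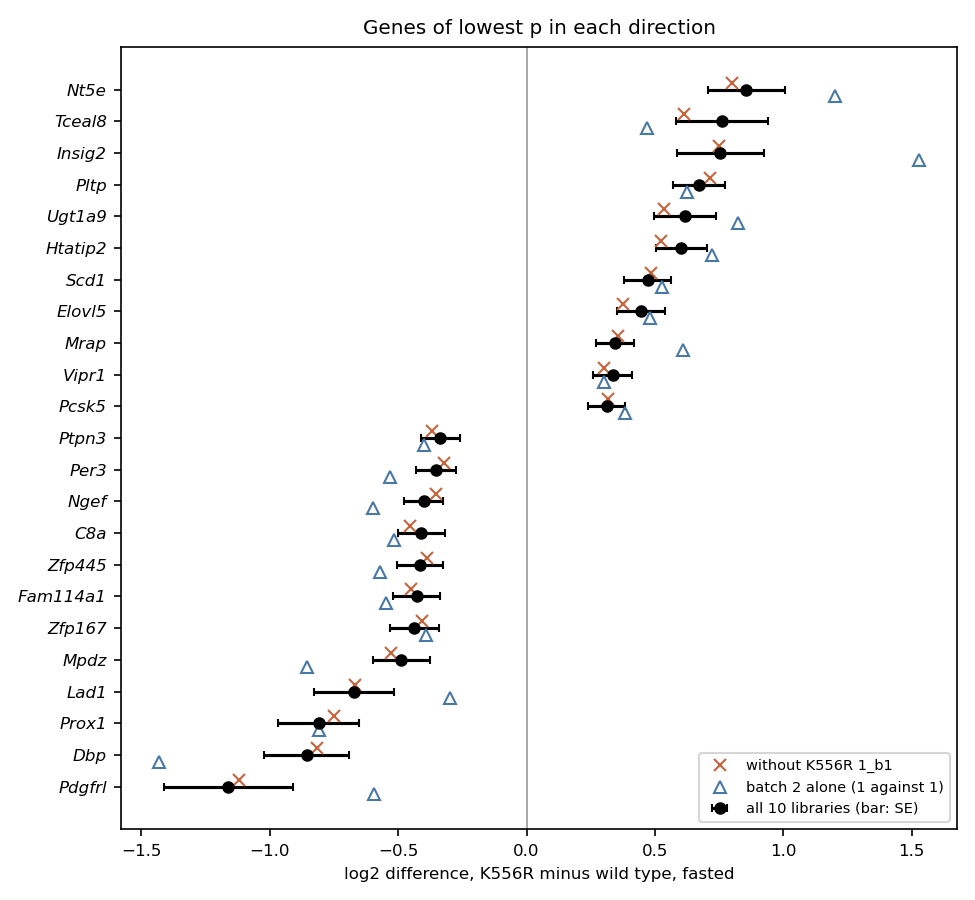
Log2 difference, K556R minus wild type, for 11 higher and 12 lower genes of lowest p (of 12 taken in each direction). Points are the estimates from all 10 libraries with their SE, crosses those without K556R 1_b1, and triangles the ratio of the 2 batch 2 libraries. The estimates run from −1.16 for Pdgfrl to 0.86 for Nt5e, and every cross and triangle lies on the same side of 0 as its point.

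Several of the higher genes handle lipid. Scd1, the desaturase that makes oleate from stearate, measured 6412, 6262, 6310, 5081 and 11460 CPM in wild type against 8013, 9315, 7292, 8425 and 16520 CPM in K556R. Within each batch every K556R library lay above every wild-type one, and in both genotypes the batch 2 library was by far the highest. The log2 difference was 0.47 (SE 0.09), and 0.48 (SE 0.10) without K556R 1_b1. Pltp, the phospholipid transfer protein of plasma lipoproteins, had the same layout, at 24.08, 27.29, 24.21, 22.01 and 51.42 CPM in wild type against 34.02, 43.82, 32.76, 45.96 and 79.42 CPM in K556R. Its difference of 0.67 (SE 0.10) had the lowest p of all genes tested. Scd1 lies at chr19:44394455-44407879 and Pltp at chr2:164839518-164857711, both on the minus strand. Elovl5, an elongase of polyunsaturated fatty acids, stood at 236.2 ± 39.3 CPM in wild type against 322.3 ± 57.7 CPM in K556R (SD, n = 5), a difference of 0.45 (SE 0.10).

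Insig2 holds the sterol sensor SCAP in the endoplasmic reticulum and is the INSIG form that fasting favours in liver. It measured 275.1, 267.3, 178.5, 235.3 and 148.5 CPM in wild type against 380.2, 297.1, 351.8, 385.5 and 428.7 CPM in K556R, without overlap. The difference was 0.75 (SE 0.17), made up of 0.56 in batch 1 and 1.53 between the batch 2 libraries, where wild type was lowest and K556R highest of its group. Insig2 lies at chr1:121304353-121332589 on the minus strand.

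Most other members of these pathways lay nearer to 0. Of the 17 lipogenesis genes tested, a list described after its values were seen, 4 had an unadjusted p under 0.05 and were higher, 11 lay above 0, and the median was 0.04, beside 0.003 for all genes, of which 50.8% lay above 0. Besides Scd1 and Elovl5 the 4 were Fasn, the fatty acid synthase, at 0.45 (SE 0.17), and Pnpla3, a lipid droplet protein of low level, at 0.70 (SE 0.26). Acaca at 0.16 (SE 0.13), Acly at −0.04 (SE 0.10) and Srebf1 at 0.05 (SE 0.20), named after their values were seen, are the carboxylase, the citrate lyase and the master regulator of the same pathway. The Fasn difference was 0.57 in batch 1 and −0.02 between the batch 2 libraries. Of 25 genes of cholesterol synthesis and uptake, 2 had an unadjusted p under 0.05, both higher. Among them was Srebf2 at 0.31 (SE 0.13), which encodes the sterol-regulated transcription factor. The median was 0.05, at 0.12 in batch 1 and −0.33 between the batch 2 libraries. Among 9 genes of cholesterol efflux and the LXR receptors, Mylip, a ubiquitin ligase induced by LXR, stood at 0.28 (SE 0.10) and Abca1, the cholesterol exporter, at −0.25 (SE 0.09), with a median of −0.03 over the list. Of all genes tested, 2.87% were higher and 3.75% lower with an unadjusted p under 0.05.

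Htatip2 and Ugt1a9 were also among the higher genes. Htatip2, which encodes a short-chain dehydrogenase-like protein, measured 20.36, 20.93, 17.29, 22.01 and 20.12 CPM in wild type against 36.32, 29.86, 25.46, 28.22 and 33.22 CPM in K556R. The wild-type values were close together and all below the lowest K556R value, and the difference was 0.60 (SE 0.10), or 0.52 (SE 0.09) without K556R 1_b1. The gene lies at chr7:49759115-49773975 on the plus strand. Ugt1a9, a glucuronosyltransferase, stood at 35.1 ± 6.54 CPM in wild type against 53.6 ± 8.39 CPM in K556R (SD, n = 5), without overlap. Ugt1a9 shares exons with the other Ugt1a genes, so its count is uncertain.

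NRF2 is a transcription factor that oxidants and electrophiles release from its inhibitor KEAP1, and its targets make glutathione, conjugate toxins and supply NADPH. Of 26 NRF2 targets tested, 9 had an unadjusted p under 0.05, all higher, 22 lay above 0, and the median was 0.26 (0.19 without K556R 1_b1). No member was called by edgeR or DESeq2. Of all genes tested, 2.87% were higher with an unadjusted p under 0.05, and 0.369% were higher without overlap. Cbr1, a carbonyl reductase, measured 63.39, 63.54, 51.83, 67.2 and 49.69 CPM in wild type against 91.64, 69.33, 68.09, 94.51 and 93.97 CPM in K556R, and its difference was 0.50 (SE 0.13). Gstm1, a glutathione transferase, measured 752.2 to 1018 CPM in wild type against 1044 to 1354 CPM in K556R, a difference of 0.36 (SE 0.09). These were the 2 members whose ranges did not overlap. Nqo1, the quinone reductase often used as the readout of NRF2, stood at 3.50 ± 0.83 and 5.25 ± 1.33 CPM (SD, n = 5), a difference of 0.58 (SE 0.20) that was 0.40 without K556R 1_b1, its highest library. Pgd, an enzyme of the pentose phosphate pathway, stood at 0.25 (SE 0.06). Other canonical targets lay near 0, such as Gclm at 0.03 (SE 0.08) and Txnrd1 at −0.03 (SE 0.06), named after their values were seen. The summed picture by library was uneven: the mean deviation of the list was 0.26, 0.11, −0.06, −0.06 and 0.27 in the K556R libraries and −0.20 to −0.04 in wild type. In K556R, 1_b1, 2_b1 and 1_b2 thus lay above the wild-type range and the other 2 within it.

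The promoters of NRF2 targets were searched because many of these genes are known to carry the antioxidant response element. The motif TGACNNNGC was sought on both strands in RefSeq windows running from 250 bases before to 50 bases after each gene's start (GRCm38.p6). It was found in 12.4% of all 32851 windows and in 10 of the 29 windows (34.5%) of NRF2 targets, since a gene can have several. These belonged to 9 of 22 genes, namely Abcc2, Abcc4, G6pdx, Gclm, Me1, Pgd, Srxn1, Txnrd1 and Ugdh. Gclm and Txnrd1, which lay near 0, were thus among the 9, and Cbr1, Gstm1 and Nqo1 were not. Of the 57 windows of named genes 7 held the motif (12.3%), near the share of all windows. Htatip2, no member of the list, was among the genes that held it. A match in Htatip2 and 1 in Ugdh, an enzyme that supplies glucuronate, are printed 5′ to 3′ with the motif in capitals, Htatip2 from chr7:49759433-49759501 on the plus strand and Ugdh from chr5:65435936-65436004 on the minus strand.
Htatip2 promoter: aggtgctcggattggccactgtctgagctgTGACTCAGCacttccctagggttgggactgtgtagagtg
Ugdh promoter: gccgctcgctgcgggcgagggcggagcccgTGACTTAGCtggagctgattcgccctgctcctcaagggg
The Htatip2 match printed here is counted from a later RefSeq start and lies inside the gene as GENCODE M21 bounds it. Ugdh stood at 0.24 (SE 0.13) in K556R. A match of letters is a description and not a measure of binding.

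The remaining higher genes have varied roles. Nt5e, the ectoenzyme that makes adenosine from AMP, measured 6.141, 4.785, 4.02, 5.117 and 5.458 CPM in wild type against 10.06, 9.815, 6.885, 7.373 and 12.68 CPM in K556R. The difference was 0.86 (SE 0.15), the largest among the 12 higher genes, and the ranges did not overlap. It lies at chr9:88327197-88372092 on the plus strand. Mrap, an accessory protein of melanocortin receptors, stood at 0.34 (SE 0.07), and Pcsk5, a proprotein convertase, at 0.31 (SE 0.07). Vipr1, a receptor of vasoactive intestinal peptide, stood at 0.34 (SE 0.08). These 3 also had ranges without overlap. Tceal8, a gene of the TCEAL family on the X chromosome, stood at 0.76 (SE 0.18) from a low level, 2.39 ± 0.66 CPM in wild type against 4.01 ± 0.88 CPM in K556R (SD, n = 5).

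**Figure D3:**
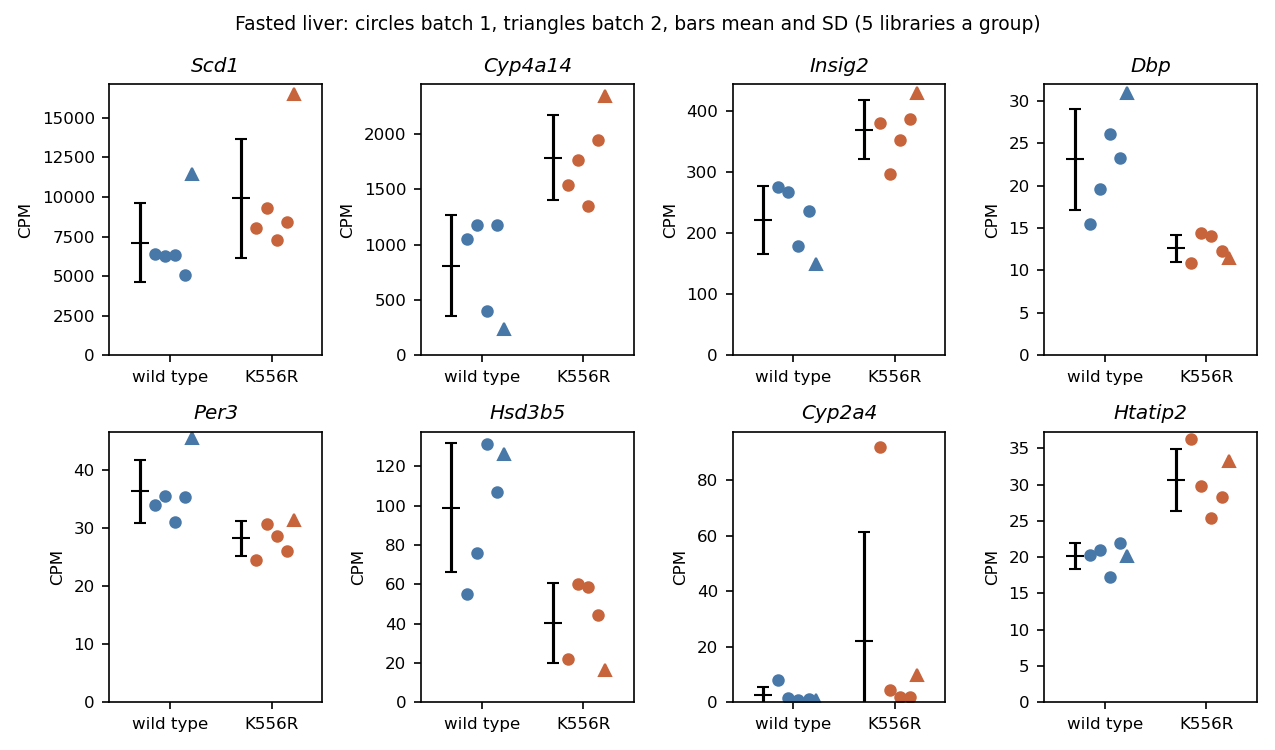
CPM in every fasted library for 8 genes of the lipid, fatty acid oxidation, clock, sex-biased and dehydrogenase groups. Circles are batch 1, triangles batch 2, and bars the mean with SD over 5 libraries (for Cyp2a4 the lower end of the K556R bar lies below 0 and is not drawn). Scd1 is highest in the batch 2 library of both genotypes (11460 and 16520 CPM), Dbp and Htatip2 separate the groups, and the K556R mean of Cyp2a4 comes from 1 library at 92.1 CPM.

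Among the lower genes, 2 belong to the circadian clock. Dbp, a PAR-domain transcription factor whose mRNA cycles strongly in liver, measured 15.47, 19.61, 26.13, 23.26 and 30.91 CPM in wild type against 10.88, 14.41, 14.09, 12.27 and 11.41 CPM in K556R. The ranges did not overlap, and the difference of −0.86 (SE 0.16) was −0.71 in batch 1 and −1.43 between the batch 2 libraries. Per3, a member of the period family, measured 34.04, 35.54, 30.98, 35.35 and 45.51 CPM in wild type against 24.46, 30.73, 28.69, 26.01 and 31.42 CPM in K556R. Only the K556R library of batch 2 reached into the wild-type range, and the difference was −0.35 (SE 0.08). Dbp lies at chr7:45705088-45710203 on the plus strand and Per3 at chr4:151003652-151044665 on the minus strand.

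The clock genes were then looked at as a list, after their values were seen. The clock turns on CLOCK and BMAL1 (Arntl), which drive the Per, Cry, Nr1d and PAR-domain genes, while the NR1D proteins repress Arntl. Of 18 tested members, 3 had an unadjusted p under 0.05 on the higher side and 6 on the lower, against 2.87% and 3.75% of all genes. The list median was −0.02. The higher 3 were Arntl at 0.69 (SE 0.23), Clock at 0.13 (SE 0.06) and Cry1 at 0.31 (SE 0.10). The lower 6 were Dbp, Per3, Per2 at −0.25 (SE 0.08), Nr1d1 at −0.58 (SE 0.23), Nr1d2 at −0.28 (SE 0.11) and Tef at −0.15 (SE 0.06). All 9 kept their direction in batch 1, between the batch 2 libraries and without K556R 1_b1. They were chosen by their p over the same libraries, so this is a description and supports nothing. Per1 at −0.03 (SE 0.10) and Cry2 at 0.00 (SE 0.07) lay near 0. Livers were taken over a span from Zeitgeber time 15 to 17, and the time of each single library is not given, so genotype and time of collection cannot be told apart for these genes.

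The other lower genes were of several kinds. Ngef, a guanine nucleotide exchange factor, measured 40.41, 42.65, 41.43, 40.7 and 45.09 CPM in wild type against 27.48, 33.62, 36.19, 32.3 and 29.74 CPM in K556R. Its wild-type values were closely spaced and all above K556R, with a difference of −0.40 (SE 0.08). Pdgfrl, a receptor-like protein without a kinase, had the largest difference among the 12, −1.16 (SE 0.25), but from scattered wild-type values of 1.19 to 6.95 CPM against 0.757 to 2.18 CPM. C8a, a chain of complement factor 8 made by hepatocytes, stood at 992.1 ± 124.3 CPM in wild type against 749.3 ± 107 CPM in K556R (SD, n = 5), a difference of −0.41 (SE 0.09).

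The zinc finger genes Zfp445, a regulator of imprinted loci, and Zfp167 stood at −0.41 (SE 0.09) and −0.44 (SE 0.10). The tyrosine phosphatase Ptpn3 stood at −0.34 (SE 0.08) and the multi-PDZ scaffold Mpdz at −0.49 (SE 0.11). Fam114a1 stood at −0.43 (SE 0.09), and Lad1, the gene of the basement membrane protein ladinin, at −0.67 (SE 0.16). Zfp445, Fam114a1, Ptpn3 and Mpdz had ranges without overlap, whereas Zfp167 and Lad1 overlapped, for Lad1 through K556R 1_b2 at 5.54 CPM against 3.19 to 3.73 CPM in the other 4 K556R libraries.

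Sex-biased liver genes follow the rhythm of growth hormone secretion through STAT5 and BCL6, and CUX2 is a female-specific repressor of male-biased genes. All mice were male. Of 10 female-biased genes tested, out of 20 in the list, 4 had an unadjusted p under 0.05. All 4 were higher, against 2.87% of all genes, and the list median was 0.70 (0.64 without K556R 1_b1). Levels of the female-biased genes in these males were mostly low, and the 10 are those that passed the filter on low counts. Of them 8 reached the level of the filter in all 5 wild-type libraries, but Cux2 did so in 1 wild-type and 4 K556R libraries, so the count and the median are a description and support nothing. Cux2 measured 0.148, 0.221, 0.144, 0.287 and 0.23 CPM in wild type against 0.887, 0.179, 0.269, 0.487 and 0.654 CPM in K556R. Its highest library was K556R 1_b1, and the difference of 1.27 (SE 0.42) was 0.90 (SE 0.36) without it. Fmo2, a flavin monooxygenase, stood at 0.58 (SE 0.21). Cyp2a4, a steroid hydroxylase that shares reads with near-identical Cyp2a genes, measured 8.188, 1.546, 0.804, 1.253 and 0.774 CPM in wild type against 92.1, 4.654, 2.132, 1.809 and 9.716 CPM in K556R. Its difference of 3.15 (SE 1.35) rested on K556R 1_b1 and was 0.65 (SE 0.96) without it.

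Of 23 male-biased genes tested, 10 had an unadjusted p under 0.05 on the lower side and 1, the elongase gene Elovl3, on the higher side at 0.45 (SE 0.20). Of all genes tested, 3.75% were lower and 2.87% higher with such a p, and 0.496% were lower without overlap. In all, 21 of the male-biased genes lay below 0, and their median was −0.36 (−0.43 without K556R 1_b1). Hsd3b5, a steroid reductase of male liver, measured 55.31, 75.78, 131.3, 106.8 and 126.3 CPM in wild type against 22.19, 60.2, 58.81, 44.52 and 16.3 CPM in K556R, a difference of −1.35 (SE 0.43). Wild type 1_b1 was the single wild-type library within the K556R range. Nox4, an oxidase that makes hydrogen peroxide, and Cyp2u1, a fatty acid hydroxylase, both stood at −0.45 (SE 0.15 and 0.14), and C8a, given above, is also on this list and is its 1 DESeq2 call. Mup1, a major urinary protein gene with near-identical copies, was the member without overlap, at 24.1 to 58.9 CPM in wild type against 0.192 to 21.4 CPM in K556R. Mup1 and Elovl3 were named after their values were seen. The list's mean deviation was −0.40, −0.19, 0.04, −0.18 and −0.53 in the K556R libraries and −0.17, 0.13, 0.76, 0.31 and 0.23 in wild type, so the groups overlapped.

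The STAT motif TTCNNNGAA was found in 8.3% of all promoter windows and in 5 of the 28 windows (17.9%) of sex-biased genes, which belonged to 4 of 21 genes. Of the 57 windows of named genes 6 held it (10.5%). These few matches are a description and not a measure of binding. The match in C8a is printed 5′ to 3′, motif in capitals, from chr4:104876588-104876648 on the minus strand.
C8a promoter: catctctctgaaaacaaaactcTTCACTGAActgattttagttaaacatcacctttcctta

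Fasting turns on fatty acid oxidation and ketone synthesis through PPARA and glucose production through glucagon and glucocorticoid signals. Of 31 PPARA targets and oxidation genes tested, 3 had an unadjusted p under 0.05, all higher, against 2.87% of all genes. The list median was 0.07. Cyp4a14, an omega-hydroxylase of fatty acids that responds strongly to PPARA, measured 1047, 1180, 400.1, 1179 and 236.8 CPM in wild type against 1537, 1762, 1350, 1943 and 2342 CPM in K556R. The ranges did not overlap, and wild type 3_b1 and 1_b2 were far below the other wild-type libraries. Its difference of 1.24 (SE 0.45) was 0.79 in batch 1 and 3.31 between the batch 2 libraries. Its neighbour Cyp4a10, which has related sequence, measured 421.5, 523.6, 331.7, 542.4 and 305.9 CPM in wild type against 516.7, 587.4, 706.7, 671.1 and 810.3 CPM in K556R, a difference of 0.64 (SE 0.18). DESeq2 gave Cyp4a10 an adjusted p of 0.0753 with all 10 libraries and 0.0300 without K556R 1_b1. Plin5, which joins lipid droplets to mitochondria, stood at 0.67 (SE 0.24).

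Some other genes of the list lay close to 0. Cpt1a, the gatekeeper of mitochondrial import, stood at −0.09 (SE 0.07) and Ppara itself at −0.07 (SE 0.07), both named after their values were seen. The list median was 0.00 in batch 1 and 0.39 between the batch 2 libraries. Of 14 genes of gluconeogenesis and fasting, none had an unadjusted p under 0.05, and the median was 0.05. Pck1 stood at −0.09 (SE 0.13) and G6pc at −0.49 (SE 0.34), the latter with 673.8 to 2149 CPM in wild type against 609.4 to 1316 CPM in K556R. Of 15 genes of the integrated stress response, in which ATF4 turns on amino acid synthesis genes, 2 had an unadjusted p under 0.05. Both were higher, against 2.87% of all genes, and the list median was 0.16. Atf5, a factor of that response, stood at 91.0 ± 16.3 CPM in wild type against 149.6 ± 43.2 CPM in K556R (SD, n = 5), a difference of 0.70 (SE 0.20), and Vldlr, a lipoprotein receptor, at 0.83 (SE 0.37). Atf4 itself stood at −0.09 (SE 0.10).

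**Figure D4:**
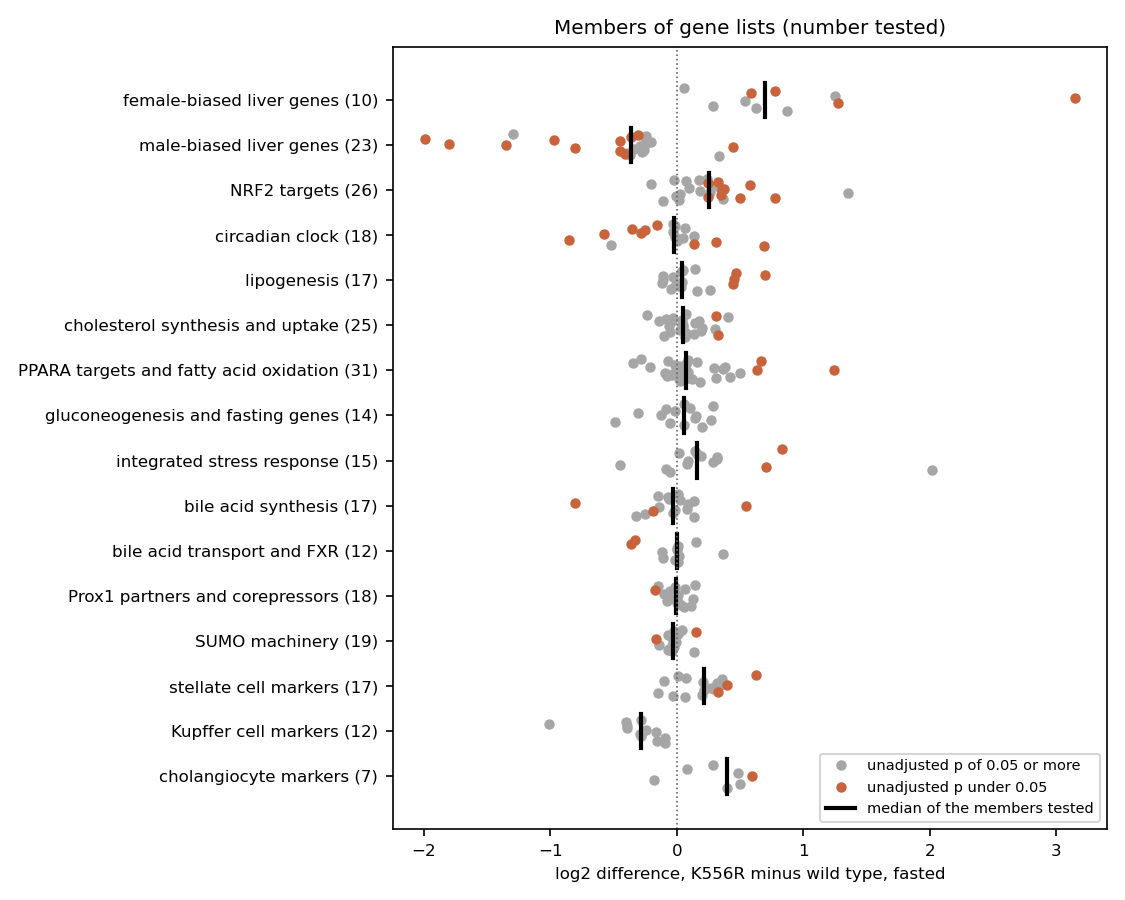
Log2 difference, K556R minus wild type, for each tested member of 16 gene lists, with the number tested in brackets. Orange points have an unadjusted p under 0.05, grey points do not, and black bars are list medians. The female-biased median lies at 0.70 and the male-biased median at −0.36, the clock list has orange points on both sides of 0, and most metabolic lists have medians near 0.

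Prox1 is known to repress bile acid synthesis, so these genes were examined. Of 17 genes of the pathway, 1 had an unadjusted p under 0.05 on the higher side and 2 on the lower. Over all genes tested it was 2.87% and 3.75%. The median of the pathway was −0.03. Cyp7a1, the rate-limiting enzyme and a known target of Prox1 repression, overlapped widely at 43.7 to 111 CPM in wild type against 18.8 to 111 CPM in K556R, a difference of 0.09 (SE 0.44) that was −0.27 without K556R 1_b1. It was named after its values were seen. Cyp39a1, an oxysterol hydroxylase, measured 66.18, 60.44, 35.23, 76.34 and 43.85 CPM in wild type against 97.35, 70.44, 77.99, 86.62 and 77.15 CPM in K556R, a difference of 0.55 (SE 0.19). Cyp7b1, the oxysterol hydroxylase of the alternative route and also a male-biased gene, stood at −0.80 (SE 0.34), with wild type 3_b1 at 438 CPM against 114 to 225.6 CPM in the other 4. Amacr, a racemase of side-chain shortening, stood at −0.19 (SE 0.09). Of 12 genes of bile acid transport and the receptor FXR, 2 had an unadjusted p under 0.05, both lower, the uptake carriers Slco1a1 at −0.36 (SE 0.14) and Slco1b2 at −0.33 (SE 0.15). The list median was 0.00.

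The mRNAs of proteins through which Prox1 and SUMO act had small differences. Of 18 partners and corepressors of Prox1, 1 had an unadjusted p under 0.05, Rcor1, a subunit of the LSD1 complex, at −0.18 (SE 0.08). Hdac3 stood at −0.08 (SE 0.07), Kdm1a (LSD1) at −0.05 (SE 0.07) and Hnf4a at 0.13 (SE 0.08), named after their values were seen. Of 19 genes of the SUMO machinery 2 had an unadjusted p under 0.05, the protease gene Senp5 at −0.17 (SE 0.06) and Sumo3 at 0.15 (SE 0.06). The medians were −0.01 and −0.03, and the members ranged from −0.18 to 0.14 and from −0.17 to 0.15. Of all genes tested, 2.87% were higher and 3.75% lower with an unadjusted p under 0.05.

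In bulk liver, fewer cells of a type and less RNA per cell cannot be told apart. The counts of markers below stand beside 2.87% of all genes higher and 3.75% lower with an unadjusted p under 0.05. Of 17 stellate cell markers 3 had an unadjusted p under 0.05, all higher, namely the secreted lectin Colec10 at 0.33 (SE 0.10), the matrix protein gene Ecm1 at 0.39 (SE 0.13) and Rgs5, a pericyte gene, at 0.63 (SE 0.25). Rgs5 was highest in K556R 1_b1, at 9.01 CPM, and stood at 0.38 (SE 0.17) without that library. In all, 14 of the 17 markers lay above 0, with a median of 0.22. The median was 0.38 in batch 1 and −0.41 between the batch 2 libraries, so the direction was not shared by the batches. Their sum was 244 to 350 CPM in wild type against 245 to 442 CPM in K556R. All 12 Kupffer cell markers lay below 0 and none had an unadjusted p under 0.05 (median −0.28). Their sum was 57.6 to 312 CPM in wild type against 106 to 134 CPM in K556R, so the K556R range lay inside the wild-type one. By median sum the direction was the other one, with wild type at 107 CPM and K556R higher, at 124 CPM. Wild type 2_b1 had the highest mean deviation of the Kupffer list, 1.29. The other wild-type libraries had −0.823 to 0.08, and the K556R libraries −0.208 to 0.145.

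Of 12 sinusoidal endothelial markers, 1 had an unadjusted p under 0.05, Lyve1, a hyaluronan receptor, at 0.62 (SE 0.24). Lyve1 was highest in K556R 1_b1, at 21.7 CPM, and stood at 0.41 (SE 0.20) without that library. The sums of the 12 markers overlapped at 138 to 246 CPM in wild type against 205 to 231 CPM in K556R. Prox1 also marks lymphatic endothelium, whose markers summed to 22.2 to 37.2 CPM in wild type against 24 to 32.5 CPM in K556R, with the chemokine gene Ccl21a at 0 in all 10. How shared reads were counted is not known here, so a count of 0 need not mean that a transcript was absent. Of 7 tested cholangiocyte markers, 1 had an unadjusted p under 0.05, the mucin gene Muc1 at 0.60 (SE 0.22), and the median was 0.39. All 9 counted cholangiocyte markers, tested or not, summed to 26.5 to 35.1 CPM in wild type against 28 to 43.1 CPM in K556R. The 3 tested markers of monocytes and neutrophils had a median of −0.39. Sums over all 9 counted markers, tested or not, were 7.94 to 45.8 CPM in wild type against 11.6 to 20.1 CPM in K556R. The median sums were 13.1 and 15.2 CPM, the other direction, but over more genes. Wild type 2_b1 again had the highest mean deviation, 0.75, against at most 0.26 in K556R. The 3 tested lymphocyte markers had a median of 0.55, which was 0.01 without K556R 1_b1. All 15 counted lymphocyte markers, tested or not, summed to 1.72 to 4.1 CPM in wild type against 2.25 to 12.7 CPM in K556R. Red cell markers summed to 168 to 196 and 157 to 235 CPM, and 6 of 13 genes of pancreas, fat and muscle were at 0 in all libraries. What part these cells have in the gene differences above was not tested.

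Whether the fasted differences depended on feeding was tested as an interaction over all 20 libraries. Refed K556R mice had 2 libraries in batch 1 and 3 in batch 2, so batch is less balanced there. None of the 61 genes named by the rule passed (adjusted p = 0.9997 for each, edgeR quasi-likelihood test), and 23 had an unadjusted p under 0.05, against 3.98% of all 13894 genes in that fit. The fasted contrast that chose these genes is part of the interaction, so nothing is read from that count. Of the 24 genes of lowest p, 16 lay on the same side in refed livers and 8 on the other, and none was called there by edgeR. Nt5e had the lowest unadjusted interaction p, with 0.86 fasted and 0.03 (SE 0.16) refed. Scd1 stood at 0.47 fasted and −0.11 (SE 0.12) refed, and Dbp at −0.86 and −0.34 (SE 0.28). Prox1 stood at −0.61 (SE 0.15) and AK083547 at 1.05 (SE 0.18) in refed livers. The refed median was 0.06 for female-biased genes, 0.05 for male-biased genes and 0.09 for NRF2 targets, beside 0.70, −0.36 and 0.26 in fasted livers. No gene of these lists had an interaction called, so a difference between the feeding states was not shown.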

How the data were processed

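The authors deposited unnormalised read counts by gene, with 1 column per sample, and all 20 columns matched a sample. The submitters' processing notes name genome build mm10 and the tools STAR, TopHat, STAR-Fusion, HTSeq, edgeR and DESeq2. The sources used here do not say which tool made the counts, with which annotation, and with which settings for strand and shared reads. Reads of a gene and of an overlapping antisense gene therefore cannot be told apart.

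The 10 fasted libraries were fitted with edgeR 4.0.16 (R 4.3.3): filterByExpr (minimum count 10, total 15), TMM, robust quasi-likelihood F test, genotype with batch as an additive term, and Benjamini-Hochberg adjustment over 13294 genes (threshold 0.05). CPM use TMM-adjusted library sizes. The batch 2 ratio is the log2 ratio of 2 libraries' CPM, each plus 0.1. DESeq2 1.42.0, limma 3.58.1 with quality weights, RLE and upper-quartile scaling, other filters (none, or CPM of 1 in 5 libraries), no batch term, batch 1 alone, a replicate block, all 20 libraries and leaving out each library were alternatives. The fits were run on simulated counts with planted changes larger than most differences named here. That check does not bear on why edgeR and DESeq2 differ in their calls. Replicate libraries differed by more than sampling noise (lowest chi-square per degree of freedom 22.2). A list's mean deviation in a library is log2 CPM less each gene's 10-library mean, averaged over its tested members.

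The comparison, the gene lists and the rules were chosen with earlier results of these data known. Named are the 12 genes of lowest p in each direction with a mean of at least 1 log2 CPM and without provisional names, Prox1, AK083547, and up to 4 members of lowest p in each list described. A few genes that fall under this rule are left out of the text. Lists are described where their median lies beyond 0.15 in size, where they mark cell types or where they concern Prox1 function, and others were chosen after their values were seen. Positions are from GENCODE M21 on GRCm38 and promoters from RefSeq.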

Additional observations from a re-analysis of the deposited data

Results flagged for a closer look

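Of 122 groups of 5 values, for the 61 named genes in each genotype, 10 had a library far from the other 4 (its gap to the nearest over 0.71 of the range). Chance gives this in about 1 in 20 groups of 5 like values, but each group here holds 1 library of batch 2, and 8 of the 10 are such libraries. The batch 2 library of each genotype was the highest for Scd1, at 11500 CPM in wild type against 16500 CPM in K556R, and for Pltp, at 51.4 and 79.4 CPM. K556R 1_b2 was the highest K556R library for Mrap at 44.8 CPM, for Lad1 at 5.54 CPM and for Cyp2u1 at 6.46 CPM, and the lowest for Cyp7b1 at 79.9 CPM. Cyp2a4 was highest in the library 1_b1 of both genotypes, at 8.19 CPM in wild type against 92.1 CPM in K556R.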

How the results depend on the processing

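All 61 named genes kept their direction in each alternative fit in which they were tested. Between the single batch 2 libraries 57 of 61 did, and Fasn, Rgs5, Ecm1 and Colec10 did not. Apart from AK083547, the named genes were chosen by a low p in the main fit. The alternatives reuse its libraries, so a kept direction is a description and supports nothing. edgeR called 0 genes with all 20 libraries (lowest adjusted p 0.0666), without the batch term, in batch 1 alone, with RLE or upper-quartile scaling, without a filter or with a stricter one, and without robust estimates. DESeq2 called 42 genes, 31 without K556R 1_b1 and 13 in batch 1 alone, the latter pair added after the data were seen. Leaving out 1 library gave 0 to 2 edgeR calls, the 2 without wild type 3_b1. Genes with an unadjusted p under 0.05 numbered 881, 577 in batch 1 alone and 584 to 1117 with 1 library left out, the fewest without wild type 1_b2. Leaving out K556R 1_b2 gave 588. With either 1_b2 library left out, the batch term takes up the other, so both fits compare the genotypes in batch 1 alone. Leaving out K556R 4_b1 gave 648, so the count leans in part on a single library. Same-numbered libraries did not deviate together (correlations −0.07 to 0.02 in batch 1, and 0.22 for the pair that makes up batch 2). With the replicate block edgeR called 0 genes and 756 had an unadjusted p under 0.05. The list medians of 24 lists changed sign in 7 lists between the single batch 2 libraries, and in 1 to 4 with RLE or upper-quartile scaling, with all 20 libraries, in batch 1 alone and with each library left out.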
